A study of Mus musculus with 14 samples.

Results

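Probes for miR-664 and miR-1839 were examined in extracellular vesicles (EVs) from mouse plasma, on a NanoString nCounter panel in which each miRNA is ligated to a tag, hybridised to a color-coded reporter and counted as single barcodes. Members were all probes whose name starts with mmu-miR-664 or mmu-miR-1839. There were 3 of 599 miRNA probes, namely mmu-miR-664, mmu-miR-1839-3p and mmu-miR-1839-5p. The mice were female C57BL/6J of 6 to 8 weeks that received 2 Gy (5 samples) or 9 Gy (5 samples) of whole-body irradiation (WBIR), and EVs were isolated on day 3. Sham mice gave 4 samples, and neither the day of their collection nor the number of mice behind a sample is given in the sources used here. EVs were pelleted from cleared plasma by differential centrifugation, and a fixed mass of RNA was loaded per assay according to the methods. The counts alone do not separate the number of vesicles from the miRNA held per vesicle, and vesicle number was not analysed here. The members were chosen by their raw counts across these same 3 groups, with earlier results known, so differences between groups are given below as a description without a test.

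Most miRNAs are cut from long transcripts by Drosha in the nucleus and then by Dicer in the cytoplasm. A small number come from small nucleolar RNAs (snoRNAs). H/ACA snoRNAs fold into hairpins joined by a hinge with an H box, end in an ACA box, and bind dyskerin to guide pseudouridylation of other RNAs. Some of their hairpins are also cut by Dicer into fragments of miRNA size that enter Argonaute proteins. A hairpin can give an arm from its 5′ side (5p) and one from its 3′ side (3p), and the seed, bases 2 to 8 of an arm, leads target pairing.

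The mature arms of both hairpins are shown first to give the sequences that the probe names refer to. Sequences are from RefSeq, assembly GRCm38.p6, are written 5′ to 3′, and have the seed in capitals. The panel name mmu-miR-664 gives no arm, so both arms of that hairpin are shown. mmu-miR-1839-3p is named only.
mmu-miR-664-5p: cUGGCUGGggaaaaugacugg
mmu-miR-664-3p: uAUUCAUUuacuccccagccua
mmu-miR-1839-5p: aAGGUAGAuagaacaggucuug
The 3 seeds of these arms differed from one another, and each was shared with 0 other arms among the 1738 mature mouse miRNAs of the table. The first is at chr1:185242975-185242995, the next at chr1:185243012-185243033 and the last at chr7:81529919-81529940, all on the plus strand.

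The hairpins are shown because they carry the link to snoRNAs, with the arms of the preceding lines in capitals.
Mir664: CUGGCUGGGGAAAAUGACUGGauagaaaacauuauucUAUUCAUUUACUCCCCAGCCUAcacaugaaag
Mir1839: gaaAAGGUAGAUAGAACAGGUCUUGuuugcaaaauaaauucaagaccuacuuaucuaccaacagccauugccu
Mir664 lies at chr1:185242975-185243043 on the plus strand, has 69 bases and a GC share of 40.6%. By the gene bounds of RefSeq, 64 of its 69 bases lay within Snora36b, an annotated snoRNA gene, and all of it lay within the bounds of the protein-coding gene Rab3gap2, a subunit of a Rab3 GTPase-activating complex. Mir1839 lies at chr7:81529916-81529988 on the plus strand, has 73 bases and a GC share of 37.0%. It lay within the bounds of the lncRNA gene 2900076A07Rik. The table gives gene bounds only, so exon and intron were not assigned. The snoRNA origin was thus read from an overlap for Mir664 and taken as background for Mir1839.

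The H box motif ANANNA, searched on the transcribed strand with overlapping matches allowed, occurred in both hairpins, and also in 574 of all 1005 mouse hairpins (57.1%). ACA ending 3 bases before the 3′ end, the spacing of an ACA box, occurred in neither hairpin and in 16 of 1005 (1.59%). These matches describe the letters of the hairpins as annotated and not of the longer snoRNA.

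The members' counts stood against 3 kinds of control probe. The median of the negative controls averaged 8.0 counts for sham, 7.6 for 2 Gy and 7.4 for 9 Gy, and the hybridisation positive controls were close between groups (ratios of 0.926 and 0.989 for 2 Gy and 9 Gy to sham, exact permutation p of 0.333 and 0.810, two-sided). Ligation positive controls, synthetic templates that report the tagging reaction, ran from 136 to 634 counts in sham and from 1935 to 3463 in the irradiated samples. The ratio to sham was 7.88 for 2 Gy and 8.98 for 9 Gy (geometric means, exact permutation p of 0.00794 for each, two-sided, the smallest this design allows). Between 9 Gy and 2 Gy their ratio was 1.14 (exact permutation p of 0.294, two-sided). Ligation yield and the sham group cannot be told apart, and this holds for every comparison with sham below. Total counts of miRNA probes were 4781 to 6926 in sham, 8019 to 10455 at 2 Gy and 11518 to 20150 at 9 Gy. Both irradiated groups are compared with the same 4 sham samples.

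mmu-miR-664 was counted at 5, 5, 10 and 1 in the sham samples. It was counted at 31, 21, 19, 20 and 19 in the 2 Gy samples and at 30, 29, 33, 33 and 48 in the 9 Gy samples. Every irradiated sample was above every sham sample, and 2 Gy replicate 1 was the only 2 Gy sample within the range of 9 Gy. The mean count was 5.25 ± 3.69 over the sham samples (SD, n = 4), 22.0 ± 5.10 with 2 Gy (SD, n = 5) and 34.6 ± 7.70 with 9 Gy (SD, n = 5). The lowest sham count of 1 has a 95% exact Poisson interval from 0.0253 to 5.57, which covers counting error only, so the sham level was poorly measured.

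mmu-miR-1839-3p was counted at 3, 9, 6 and 9 in the sham samples. It was counted at 40, 21, 14, 16 and 13 in the 2 Gy samples and at 46, 36, 47, 42 and 53 in the 9 Gy samples. The order of the groups was again sham, 2 Gy and 9 Gy, with no overlap with sham, and 2 Gy replicate 1 was again the only 2 Gy sample within the range of 9 Gy. The mean count was 6.75 ± 2.87 over the sham samples (SD, n = 4), 20.8 ± 11.2 with 2 Gy (SD, n = 5) and 44.8 ± 6.30 with 9 Gy (SD, n = 5). At 2 Gy its variance was 6.0 times its mean, against 0.886 at 9 Gy and 1.22 in sham, where counting error alone gives a ratio of 1.

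mmu-miR-1839-5p, the opposite arm of the same hairpin, was counted at 13, 6, 7 and 8 in the sham samples. It was counted at 5, 13, 9, 5 and 3 in the 2 Gy samples and at 9, 9, 11, 8 and 11 in the 9 Gy samples. The 3 groups overlapped. Its mean count was 8.5 ± 3.11 over the sham samples (SD, n = 4), 7.0 ± 4.0 with 2 Gy (SD, n = 5) and 9.6 ± 1.34 with 9 Gy (SD, n = 5), each close to the median negative control.

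**Figure D1:**
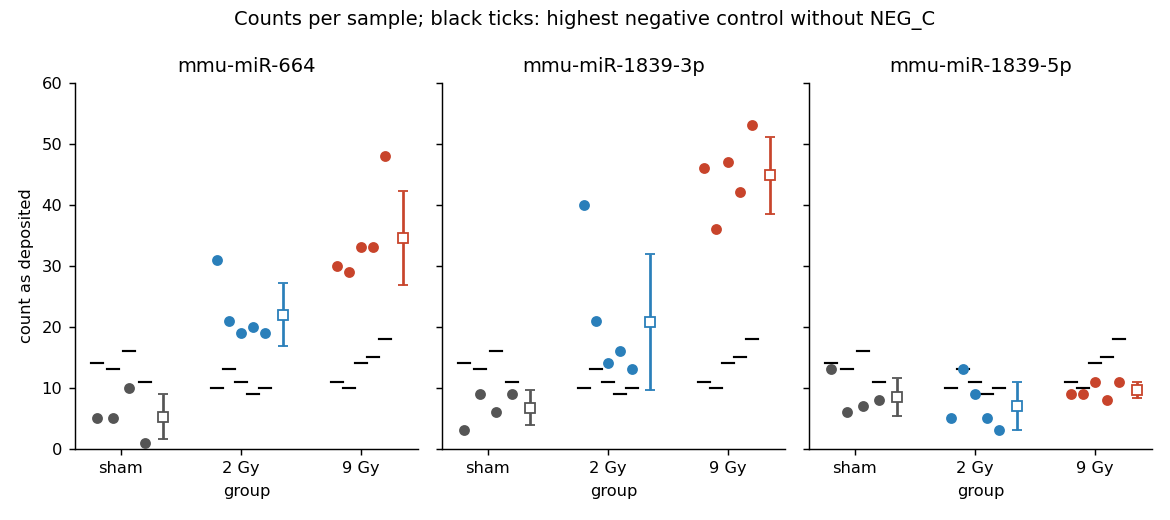
Counts as deposited (y axis) of each member by group (x axis), with 1 filled point per sample, an open square with a bar for the group mean ± SD, and a black tick for the highest negative control of that sample other than NEG_C. The points of mmu-miR-664 and mmu-miR-1839-3p lie above the tick in all 10 irradiated samples and below it in the 4 sham samples, and those of mmu-miR-1839-5p lie above it in none.

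Read against the negative controls, the arms of miR-1839 differed in detection. mmu-miR-664 and mmu-miR-1839-3p each exceeded the highest negative control other than NEG_C in 10 of 10 irradiated samples and in 0 of 4 sham samples. mmu-miR-1839-5p exceeded it in 0 of 14 samples, so a change in this arm was not detectable at this depth. The negative control NEG_C, which should bind no target, stood at 27 to 76 counts and was above all 3 members in all 14 samples. With NEG_C as the background, no member was detected in any sample. Counts of different probes were not set against each other as amounts, since probes differ in efficiency.

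Counts were scaled to the library with trimmed mean of M values (TMM) factors over all miRNA probes. On this scale mmu-miR-664 averaged 5.09 ± 3.60 over the sham samples (SD, n = 4), 24.4 ± 4.85 with 2 Gy (SD, n = 5) and 30.3 ± 4.31 with 9 Gy (SD, n = 5). mmu-miR-1839-3p averaged 7.29 ± 3.98, 22.9 ± 11.3 and 39.7 ± 6.46 in the same order. The order of the groups was the same as in the counts as deposited, but the step from 2 Gy to 9 Gy was smaller for both. For mmu-miR-664, scaled values of 2 Gy replicates 1 and 2, at 32.1 and 25.6, lay within the 9 Gy range of 25.1 to 36.8.

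As a share of all miRNA counts, mmu-miR-664 was 0.0840% in sham, 0.242% at 2 Gy and 0.245% at 9 Gy, which leaves a ratio of 1.01 between the doses. mmu-miR-1839-3p was 0.118%, 0.224% and 0.323% in the same order, with a ratio of 1.44 between the doses. Both members kept the order of 9 Gy above 2 Gy on this scale. The difference for mmu-miR-664 was smaller than its SD within either dose (0.0340 and 0.0251 percentage points). The total includes mmu-miR-376a, with a mean of 3302 counts over all samples and a fitted log2 fold change of 7.30 for 2 Gy against sham. A share, and any scaling to the total count, therefore also moves with that probe.

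The fitted log2 fold change of mmu-miR-664 was 2.19 ± 0.32 (SE) for 2 Gy against sham and 2.50 ± 0.31 (SE) for 9 Gy against sham. Between 9 Gy and 2 Gy it was 0.31 ± 0.23 (SE). The values came from edgeR's quasi-likelihood fit over the 176 miRNA probes with a mean of at least 10 counts. The sham mean of neither member was above the median negative control, so the size of a fold against sham depends on the background and is not that of a measured sham level.

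For mmu-miR-1839-3p the fitted log2 fold change was 1.71 ± 0.34 (SE) for 2 Gy against sham and 2.49 ± 0.32 (SE) for 9 Gy against sham. Between 9 Gy and 2 Gy it was 0.78 ± 0.25 (SE). The fitted values of both members against sham turned negative when counts without background subtraction were scaled to the ligation controls. They were then -0.76 and -0.29 for mmu-miR-664 and -1.55 and -0.57 for mmu-miR-1839-3p (2 Gy and 9 Gy). Under every other scaling tried in the fit they kept a positive sign. In group means per 1000 ligation control counts, given below, mmu-miR-1839-3p was lower at 2 Gy than in sham (5.15 and 5.79). Ligation control scaling in the fit also moved the median over all 176 probes to -3.01 at 2 Gy and -2.92 at 9 Gy. This was from 0.05 and 0.01, since it shifts all probes nearly alike. Total count scaling moved that median to -0.66 and -1.02, beside 1.47 and 1.48 for mmu-miR-664 and 0.99 and 1.49 for mmu-miR-1839-3p (2 Gy and 9 Gy).

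The threshold for a call was a Benjamini-Hochberg adjusted p under 0.05 in that fit. Against sham at 2 Gy, 23 of 176 probes were called higher (13.1%), and both members were among them. At 9 Gy, 28 were called higher (15.9%), again with both members. No overlap with sham in the counts as deposited, with the irradiated samples higher, was found for 17 probes at 2 Gy (9.66%) and 27 at 9 Gy (15.3%), and in each case for both members. Between 9 Gy and 2 Gy, edgeR called 0 of 176 probes higher (0.0%), with 20 at an unadjusted p under 0.05, while DESeq2 and limma-voom each called 1, which was not a member. Here 10 probes had all 9 Gy counts above all 2 Gy counts (5.68%), and neither member did. These contrasts chose the members, and both passed the filter only through the irradiated groups, so nothing is read from these counts. mmu-miR-1839-5p, with a mean of 8.36 counts, did not pass the filter.

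**Figure D2:**
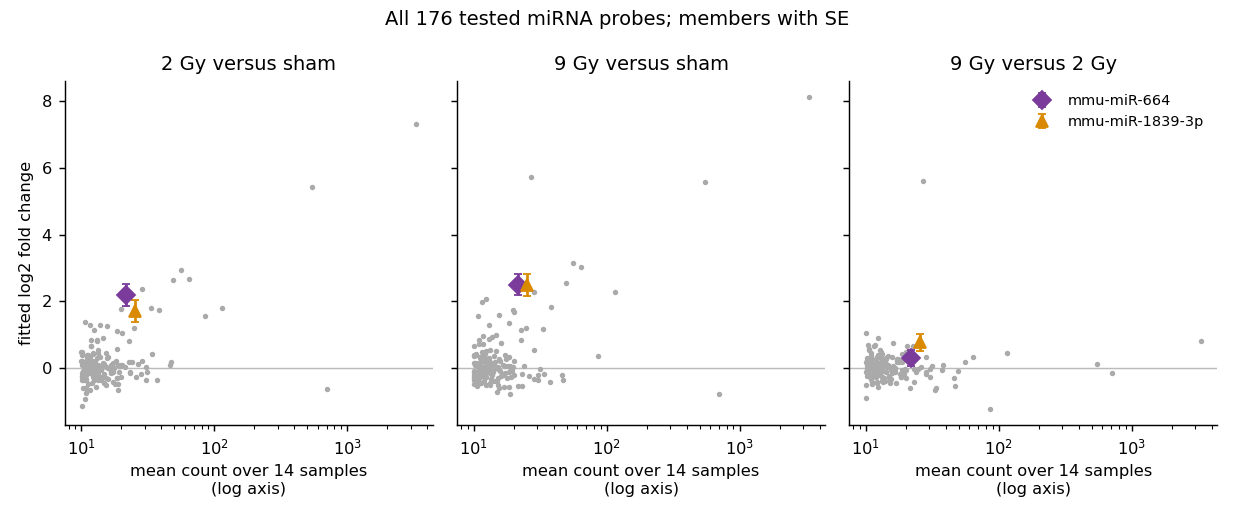
Fitted log2 fold change (y axis) against the mean count over 14 samples (x axis, log scale) for the 176 tested miRNA probes, 1 panel per comparison, with the members marked and their SE as bars. Against sham, mmu-miR-664 and mmu-miR-1839-3p lie above most probes, between 1.71 and 2.50, values that turn negative with scaling to the ligation controls, and between the doses they lie at 0.31 and 0.78.

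When no filter was set, mmu-miR-1839-5p had a log2 fold change of -0.14 ± 0.36 (SE) at 2 Gy and -0.02 ± 0.34 (SE) at 9 Gy against sham. Between 9 Gy and 2 Gy it was 0.12 ± 0.33 (SE). Each value was smaller than its SE.

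The values of mmu-miR-1839-3p at 2 Gy rested in part on replicate 1, the sample with 40 counts. Without it the log2 fold change was 1.38 ± 0.33 (SE) against sham and 1.12 ± 0.25 (SE) for 9 Gy against 2 Gy. With all samples kept, 9 Gy against 2 Gy gave 1.02 ± 0.26 (SE) with hybridisation control scaling and 1.24 ± 0.36 (SE) after background subtraction. It was 0.81 ± 0.21 (SE) with the replicate number as a block. Lower values came with total count scaling, at 0.50 ± 0.25 (SE), and with scaling to the 100 highest miRNAs, at 0.72 ± 0.23 (SE).

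The relation to the ligation controls was examined within a dose, since deviations from the dose means did not choose the members. Over the 10 irradiated samples, log2 counts were used with dose means removed. In all, 12 relations were computed between the 3 members and 4 measures (ligation, hybridisation and median negative controls, and total count). The other miRNA probes were not related to these measures, so whether a relation is particular to the members was not tested. mmu-miR-1839-3p followed the ligation controls with a Pearson r of 0.872 (permutation p of 0.00022, adjusted p of 0.00264, two-sided) and a Spearman rho of 0.903 (permutation p of 0.00091, adjusted p of 0.0109). Without the 2 samples farthest from the median ligation level, r was 0.869 (permutation p of 0.0085, adjusted p of 0.102), so its size held and its adjusted p did not pass.

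mmu-miR-664 also followed the ligation controls, with a Pearson r of 0.894 (permutation p of 0.00824, adjusted p of 0.0494, two-sided) and a Spearman rho of 0.817 (permutation p of 0.0117, adjusted p of 0.0704). Without the 2 farthest samples r was 0.362 (permutation p of 0.444), so the relation rested on those samples. mmu-miR-1839-5p did not pass against the ligation controls (r of 0.199, permutation p of 0.654). Its counts were close to the negative controls, so a relation of this arm was hardly measurable. The other relations with hybridisation controls, negative controls and total count had r from -0.435 to 0.814, and the lowest adjusted p among the 10 relations that did not pass was 0.0595, for mmu-miR-664 and the total count.

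The samples behind these relations can be named. At 2 Gy the ligation controls stood at 3121, 2458, 1998, 2148 and 1935 in replicates 1 to 5, beside mmu-miR-1839-3p counts of 40, 21, 14, 16 and 13, which is the same order. At 9 Gy they stood at 2810, 2231, 2409, 2337 and 3463, beside 46, 36, 47, 42 and 53. The highest ligation control of each dose, in 2 Gy replicate 1 and 9 Gy replicate 5, came with the highest count of both mmu-miR-664 and mmu-miR-1839-3p. In sham the ligation controls were 634, 208, 401 and 136 beside mmu-miR-1839-3p counts of 3, 9, 6 and 9, so the sham sample with the highest ligation control had the lowest count. With the sham samples added and group means removed, r over 14 samples was -0.320 for mmu-miR-1839-3p (permutation p of 0.506, rho of -0.0440) and 0.741 for mmu-miR-664 (permutation p of 0.111, adjusted p of 0.666). The rho of mmu-miR-664 was 0.723 (permutation p of 0.00186, adjusted p of 0.0223).

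**Figure D3:**
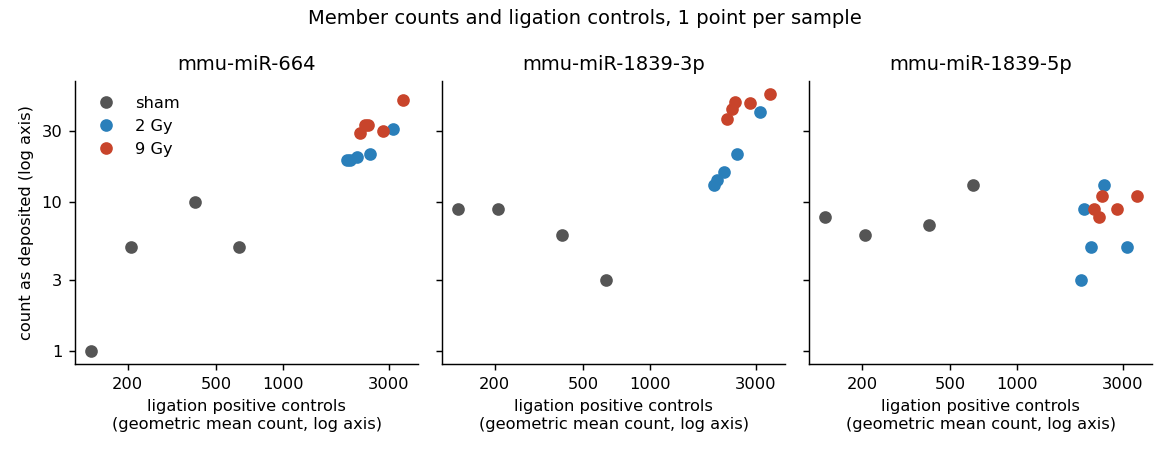
Count as deposited (y axis, log scale) against the geometric mean count of the ligation positive controls (x axis, log scale), 1 point per sample and 1 panel per member, coloured by group. The sham samples lie at 136 to 634 on the x axis, apart from the irradiated samples at 1935 to 3463, and within each dose the points of mmu-miR-664 and mmu-miR-1839-3p climb with the ligation controls, for mmu-miR-664 through the 2 samples at the far right.

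Expressed per 1000 ligation control counts, after subtraction of the median negative control, mmu-miR-664 was 0.312 ± 0.624 over the sham samples (SD, n = 4), 6.07 ± 0.802 with 2 Gy (SD, n = 5) and 10.2 ± 1.68 with 9 Gy (SD, n = 5). mmu-miR-1839-3p was 5.79 ± 8.67, 5.15 ± 3.07 and 14.1 ± 1.02 in the same order. On this scale mmu-miR-1839-3p did not differ between sham and 2 Gy beyond the spread of sham, where 2 of 4 samples were at 0 and replicate 4 was at 18.3. The 9 Gy samples were above the 2 Gy samples for both members, with ratios of means of 1.67 and 2.74. How many of all probes separate so on this scale was not counted, so nothing is read from it about the members. Total counts of miRNA probes had a ratio of 1.55 between 9 Gy and 2 Gy, beside 1.14 for the ligation controls (geometric means).

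**Figure D4:**
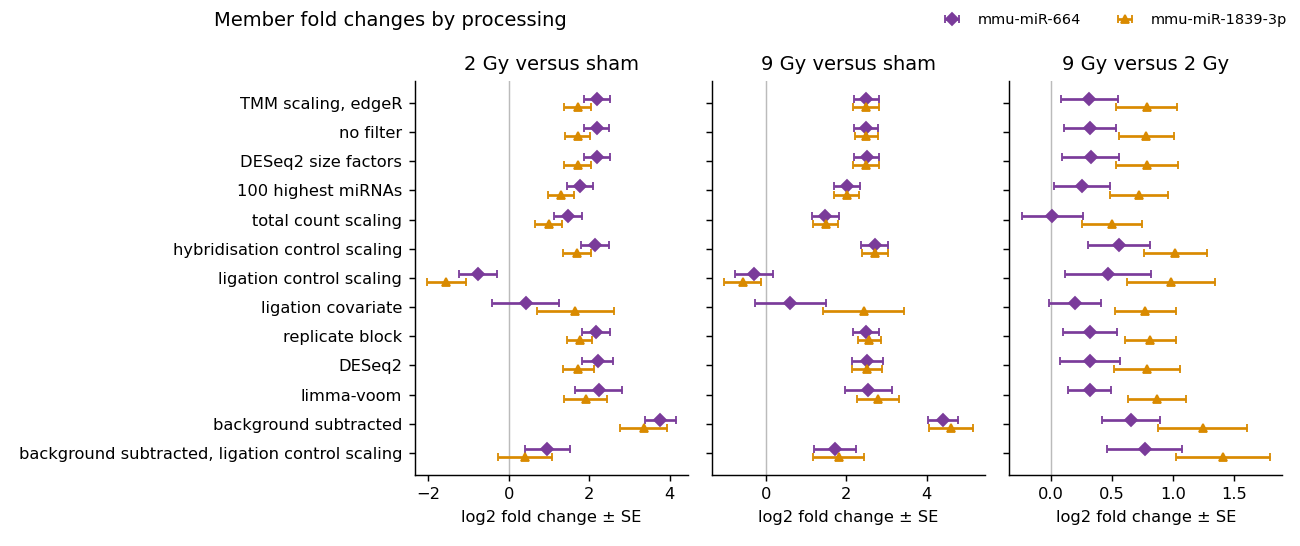
Fitted log2 fold change ± SE (x axis) of mmu-miR-664 and mmu-miR-1839-3p under each processing (y axis), 1 panel per comparison. Values against sham lie above 0 except under scaling to the ligation controls without background subtraction, where they run from -1.55 to -0.29, and values of 9 Gy against 2 Gy lie at or above 0.0092 throughout.

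With the log2 ligation control as a covariate, the log2 fold change of mmu-miR-664 was 0.42 ± 0.84 (SE) at 2 Gy and 0.61 ± 0.89 (SE) at 9 Gy against sham. That of mmu-miR-1839-3p was 1.66 ± 0.97 (SE) at 2 Gy and 2.43 ± 1.00 (SE) at 9 Gy. The SE of each of these 4 values was larger than without the covariate. Between 9 Gy and 2 Gy, where the ligation controls differed little, the covariate gave 0.20 ± 0.22 (SE) for mmu-miR-664 and 0.77 ± 0.25 (SE) for mmu-miR-1839-3p.

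Likeness between probes was measured as Pearson r of log2 scaled counts over 14 samples with group means removed. The probes most like mmu-miR-664 were mmu-miR-297c (r of 0.777), mmu-miR-674 (0.769) and mmu-miR-421 (0.764). Those most like mmu-miR-1839-3p were mmu-miR-883a-5p (0.702), mmu-miR-539 (0.662) and mmu-miR-551b (0.656). None passed adjustment over the tested probes. mmu-miR-664 and mmu-miR-1839-3p, which had the same group order, had an r of -0.157 and a Spearman rho of 0.345 with each other, which differ in sign. All these values include the sham samples, where neither member was detected, and none was computed over the irradiated samples alone. At 2 Gy the highest scaled counts of both were in replicate 1 (32.1 and 41.5). At 9 Gy the lowest of both were in replicate 2 (25.1 and 31.1), and the highest were in replicate 5 (36.8) and replicate 1 (48.1). For the arms of miR-1839 r was 0.0236 and rho -0.0681.

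Other miRNAs with precursors that resemble H/ACA snoRNAs were near the background. mmu-miR-140, mmu-miR-151-3p and mmu-miR-151-5p were on the panel and 0 of 3 passed the filter. The mean count of mmu-miR-151-3p was 8.0 ± 2.45 over the sham samples (SD, n = 4), 5.4 ± 1.82 with 2 Gy (SD, n = 5) and 7.4 ± 1.82 with 9 Gy (SD, n = 5). mmu-miR-151-5p averaged 9.25 ± 3.77, 7.2 ± 2.17 and 10.8 ± 2.77 in the same order. The summed count of the 3 probes was 14 to 26 in sham, 12 to 18 at 2 Gy and 15 to 26 at 9 Gy, so the pattern of mmu-miR-664 and mmu-miR-1839-3p was not seen in these 3 probes.

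Of 5 probes for miRNAs with precursors resembling box C/D snoRNAs, which guide ribose methylation, 3 were tested. 1 of the 3, mmu-miR-16, an abundant blood cell miRNA, was called higher at 2 Gy (log2 fold change 1.81 ± 0.40 (SE), adjusted p of 0.00459 by edgeR). It was not called at 9 Gy (1.17 ± 0.40 (SE), adjusted p of 0.0619). The median log2 fold change of the 3 was 0.58, 0.33 and -0.64 for 2 Gy against sham, 9 Gy against sham and 9 Gy against 2 Gy, beside 0.05, 0.01 and 0.03 over all tested probes. Total count and ligation control scaling turned the medians against sham negative, to -0.14 and -2.54 at 2 Gy and to -0.67 and -2.66 at 9 Gy, and scaling to the 100 highest miRNAs gave -0.16 at 9 Gy. With 1 sample left out, the 2 Gy median lay between 0.47 and 1.36 and the 9 Gy median between 0.08 and 0.79. Moves of over 1.5 times came without 2 Gy replicate 1, 3 or 5, 9 Gy replicate 5, or sham replicate 1 or 3 for both. The 9 Gy median also moved so without 9 Gy replicate 1. The median of 9 Gy against 2 Gy was -0.35 without 2 Gy replicate 5, -0.41 without 9 Gy replicate 5 and -0.36 after background subtraction. However, 1 of the 3 tested probes had a mean of 10.07 counts, just over the filter of 10. The filter was applied again in each setting, so a median can lose this probe. Such a loss was not separated from a change in the values, so these moves do not show dependence on single samples. Of 5 probes for mirtrons and short hairpins, which bypass Drosha, 0 passed the filter, with summed counts of 28 to 50 in sham, 32 to 40 at 2 Gy and 31 to 45 at 9 Gy.

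Markers of blood cells and liver stood beside the members as follows. Summed counts of 5 red cell miRNAs were 55 to 117 in sham, 60 to 362 at 2 Gy and 72 to 244 at 9 Gy, with 4 tested and 1 called, mmu-miR-16 at 2 Gy. For 2 platelet miRNAs the sums were 9 to 17, 9 to 25 and 12 to 29, with 1 tested and 0 called. For 4 lymphocyte probes they were 864 to 1049, 499 to 659 and 577 to 1009, with 3 tested, of which 1 was called lower at 2 Gy and 1 lower and 1 higher at 9 Gy. The last was mmu-miR-155, named after its values were seen. It was at 1 in all sham and 2 Gy samples and ran from 1 to 307 at 9 Gy (mean 73.4 ± 132, SD, n = 5). The probe called lower at both doses was mmu-miR-142-5p, with mean counts of 951, 565 and 646 for sham, 2 Gy and 9 Gy. It made up most of these sums. mmu-miR-150 was not called, at 0.11 ± 0.30 (SE) for 2 Gy and -0.09 ± 0.29 (SE) for 9 Gy against sham (log2 fold change). The sums thus do not show a fall of the lymphocyte probes as a set. The 2 liver probes summed to 5 to 8, 7 to 12 and 2 to 14, and 0 were tested. The part of these cells in the members' counts was not tested.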

How the data were processed

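Deposited values were counts per probe of the nCounter mouse miRNA panel v2, which the authors had neither scaled nor background-subtracted. They were whole numbers with a minimum of 1, and whether 0 was written as 1 is not stated. The authors normalised separately in nSolver 4.0. Groups and replicate numbers came from the labels. Nothing states that replicates are separate animals, so p-values measure the spread between samples. All 26 pairs within a group differed beyond sampling noise.

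TMM factors over 599 miRNA probes, a filter at a mean of 10 counts and a quasi-likelihood fit of all 3 groups used edgeR 4.0.16 in R 4.3.3. A call was an adjusted p under 0.05. Alternatives were no filter or a mean of 30 counts, scaling by DESeq2 size factors, the 100 highest miRNAs, total count, hybridisation or ligation controls, a ligation covariate, a replicate block, background subtraction, each sample left out, limma-voom (limma 3.58.1) and DESeq2 1.42.0. Values on the ligation scale are counts above the median negative control per 1000 ligation control counts. Permutation tests used SciPy 1.17.1, exact for group comparisons and with 100000 permutations within dose for correlations. Scripts were tested on simulated data. Total counts were 4781 to 20150 per sample, and intervals cover counting error only.

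Members and lists were chosen with earlier results of these data known. Probes named were all members, the 3 tested probes most like each tested member, called members of the 3 precursor lists (H/ACA-like, box C/D-like, mirtrons and short hairpins), and miR-151. mmu-miR-140 and mmu-miR-155 were named outside this rule, to list a small set and a single call, after their values were seen. Marker lists were for red cells, platelets, lymphocytes and liver. Sequences and gene bounds were from RefSeq GRCm38.p6, and 1 of 3 members matched a mature sequence of its own name. Figures were drawn with matplotlib 3.10.9.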

Additional observations from a re-analysis of the deposited data

Results flagged for a closer look

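In 2 of the 30 groups of values examined, 1 sample lay far from the others of its group, where chance gives about 1 in 20. The mmu-miR-664 count of 2 Gy replicate 1 was 31 against 19 to 21 in the other 4 samples, a gap of 0.833 of the group's range. The mmu-miR-664 count of 9 Gy replicate 5 was 48 against 29 to 33 in the other 4, a gap of 0.789 of the range, where the limit for 5 samples is 0.710. The ligation controls of these 2 samples, 3121 and 3463, were the highest of their dose, and their part in the counts was not tested.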

How the results depend on the processing

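For mmu-miR-664, scaling to the ligation controls turned the log2 fold change to -0.76 at 2 Gy and -0.29 at 9 Gy against sham. The ligation covariate gave 0.42 and 0.61 (1.66 and 2.43 for mmu-miR-1839-3p, with larger SE), and background subtraction gave 3.76 and 4.41. Background subtraction with ligation scaling, chosen after seeing the data, gave 0.96 at 2 Gy and 1.72 at 9 Gy, and total count scaling gave 1.48 at 9 Gy. Between the doses its value was 0.0092 with total count scaling, 0.56 with hybridisation control scaling, 0.65 after background subtraction and 0.77 with ligation scaling added. For mmu-miR-1839-3p, ligation scaling gave -1.55 and -0.57, background subtraction 3.36 and 4.60, and both together 0.41 and 1.81 for 2 Gy and 9 Gy against sham. Its value was 1.49 with total count scaling at 9 Gy and, between the doses, 1.41 with both together. Most subtracted sham counts were at the floor of 1.

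Calls of members are given as a description, since these contrasts chose them. The number of members called at 2 Gy against sham went from 2 to 1 with ligation scaling (mmu-miR-1839-3p, lower, as were 167 of 176 probes) and to 0 with the ligation covariate (3 of 176 probes called) or with subtraction and ligation scaling together (32 of 48 called lower and 6 higher; still 2 members at 9 Gy). At 9 Gy it went from 2 to 0 with ligation scaling (165 of 176 probes called lower) or the covariate (3 called). Between the doses it went from 0 to 1, mmu-miR-1839-3p each time, with hybridisation control scaling (12 of 176 probes called higher), the replicate block (3 of 176), background subtraction (4 of 48), and subtraction with ligation scaling (4 of 48). The replicate block changed no other call of a member. Replicate numbers did not pair samples (1 of 13 same-numbered pairs correlated over 0.1, range -0.0895 to 0.161).

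With each sample left out, mmu-miR-664 ran from 1.94 to 2.70, from 2.26 to 3.03 and from 0.23 to 0.44 for 2 Gy against sham, 9 Gy against sham and 9 Gy against 2 Gy. mmu-miR-1839-3p ran from 1.38 to 2.01, from 2.18 to 2.79 and from 0.65 to 1.12. The number called was 2 throughout against sham and 0 to 1 between the doses (1 without 2 Gy replicate 1). The box C/D-like median at 2 Gy was -0.14 with total count scaling, -2.54 with ligation scaling and -1.13 with subtraction and ligation scaling, but 1.78 with subtraction alone (9 Gy: -1.46 and 1.43 for the last pair).

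Over all 14 samples the relation to the ligation controls had an r of -0.320 for mmu-miR-1839-3p and 0.741 for mmu-miR-664, and 0 of 12 relations passed by r. By rho 2 passed, both of mmu-miR-664, with the ligation controls (adjusted p of 0.0223) and the total count (0.0499). Without the 2 samples farthest from the median, r was 0.869 and 0.362, and 0 passed by r or rho. With hybridisation control scaling or background subtraction 3 passed by r, adding mmu-miR-664 and the total count (adjusted p of 0.0274 and 0.0212), and its rho with the ligation controls passed with hybridisation and TMM scaling (0.00432 and 0.00852). With a minimum mean of 30 counts neither member was tested, and mmu-miR-16 alone was left of the box C/D-like list. The cause was not tested.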
